A study of Mus musculus with 30 samples.

Results

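The genes described here are 35 that code for proteins of skeletal muscle, from filament proteins to calcium channels, in RNA of dissected mouse aorta. They were chosen by symbol: every probe whose gene name in the scanner files equals one of the 35 was taken, which gave 51 probes, and all 35 genes were on the array. After a filter on dim probes 24 of the 35 could be tested, among 23268 gene names. Total aortic RNA was measured on 30 one-colour Agilent arrays, 1 per sample, with 3 in each of 10 groups. The mice carried the strain label C57BL/6 and were uMT, a line without mature B cells, or wild type (WT). In each genotype the groups were aorta with 0.5 M CaCl2 laid around it, taken at day 7 or day 42, sham-operated aorta with saline in its place, taken at day 7 or day 42, and aorta with no operation (pre). CaCl2 around the vessel is used to model abdominal aortic aneurysm, and the labels name aneurysm as the tissue of every sample, pre and sham included. Neither sex nor age is among the labels used here, and they do not say whether a sample was 1 animal, so p-values measure only the spread between these samples. A level is log2 of a spot's signal minus log2 of the 75th percentile of its array, so that a level of 0 is as bright as that percentile. Levels are compared between arrays for 1 probe and not between probes, and a change is a difference of 2 such levels.

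A skeletal muscle fibre shortens when thick filaments of myosin pull on thin filaments of actin, and troponin on the thin filament switches this on when calcium is released. Calcium is held in the sarcoplasmic reticulum by calsequestrin, let out by the ryanodine receptor when a voltage sensor in the membrane moves, and pumped back by an ATPase. Fast, slow and developing fibres use their own isoforms of many of these proteins, while the wall of the aorta contracts by smooth muscle, which has others. Muscles of the back lie behind the abdominal aorta.

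Between 36.6% and 61.8% of the probes on an array were well above background by the scanner software, and the weakest signal so rated stood at a level of -4.97 to -1.43, depending on the array. Of the arrays, 2 stood apart. WT sham day 42 array 2 was the dimmest, with 36.6% of probes above background, lay alone on its slide and was scanned on another day. uMT CaCl2 day 7 array 1 had 52.1% of probes above background and gave signal for sarcomere genes that were at background on the others. Results that rest on either are given with and without both. Neither array is in the WT day 7 or the uMT day 42 comparison of CaCl2 with sham. There, leaving out both keeps every change and alters only the spread that all groups share, so it does not check the compared arrays. The arrays lay on 5 slides: uMT CaCl2 and uMT sham arrays shared none, so slide and treatment cannot be told apart for them, and WT CaCl2 arrays shared a slide with 1 sham array, of day 42.

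Genes that define a muscle fibre gave signal unevenly. By the brightest probe of each gene, 9 of the 35 were well above background on all 30 arrays (Acta1, Tnnc2, Tnni2, Tnnt1, Neb, Mylk4, Pvalb, Eno3 and Pygm), 9 on 20 to 29 arrays, 5 on 10 to 19, 10 on 1 to 9 and 2 on no array. Creatine kinase of muscle (Ckm) was above background on 6 arrays, myoglobin (Mb), the oxygen store of fibres, on 1, and the heavy chain of the fastest fibres (Myh4) on 1. Titin (Ttn), the spring of the sarcomere, was above background on 4 arrays, the Z-disc protein myotilin (Myot) on 1, and the fast regulatory light chain (Mylpf) and Xirp2, an actin-binding protein of striated muscle, on none. Against these, the thin filament members Acta1, Neb, Tnnc2 and Tnni2 and the calcium buffer Pvalb were above background on all arrays, as were Tcap and Myom1 of another list of skeletal muscle genes. The defining genes of a fibre were thus measured in part on most arrays. Members are therefore called by gene and by role, and no level is read as an amount of muscle. A median of 21 of the 35 members was above background on an array, with 12 as the lowest and 31, on uMT CaCl2 day 7 array 1, as the highest.

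**Figure D1:**
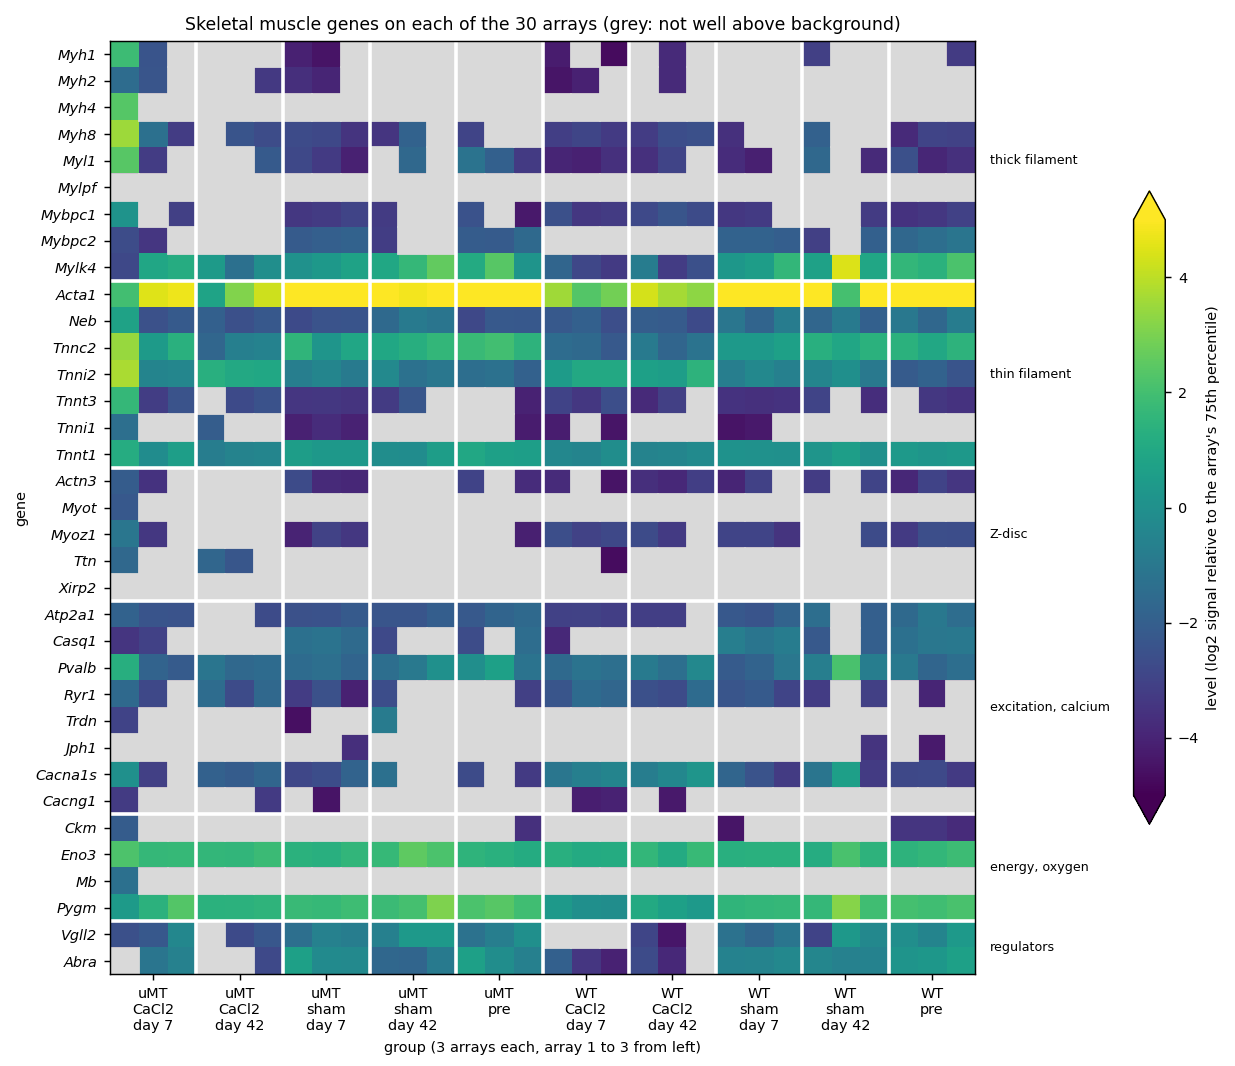
Level of each of the 35 genes (rows, by role) on each of the 30 arrays (columns, 3 per group), as log2 relative to the 75th percentile of the array, with grey cells where the spot was not well above background. The 9 genes above background on all arrays have no grey cell. The 10 above background on 1 to 9 arrays are largely grey and the 2 above it on no array wholly so. The first column, uMT CaCl2 day 7 array 1, has 31 coloured cells.

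On uMT CaCl2 day 7 array 1, 31 of the 35 members were above background, against 12 to 26 on the other 29 arrays. It held the highest level of all 30 arrays for 19 of the 35 members and for 12 of the 24 tested, while 7.38% of all genes tested were highest there. The fast heavy chain Myh4 stood at 2.36 on it and at -3.05 or lower, never above background, on the other arrays. The perinatal heavy chain Myh8, which fibres use around birth and again when they regenerate, stood at 3.55 there and at -1.29 on the next array. Another fast heavy chain, Myh1, stood at 1.86 there and at -2.40 on the next. The lead of this array over the next was 4.85 for Myh8 and 4.26 (log2) for Myh1, and none is given for Myh4, which the other arrays did not measure above background. The alkali light chain Myl1 had 2.41 against -1.21 on the next array, and the fast troponin T gene Tnnt3 had 1.66 against -2.34. Fast troponin I (Tnni2) had 3.72 against 1.46, and fast troponin C (Tnnc2) 3.45 against 1.96. Both troponin genes were above background on all arrays, unlike the 3 myosins. Mb, at -1.30, and Myot, at -2.23, were above background on this array alone, as was Myh4. Below background on it were Mylpf, Xirp2, the junctional protein Jph1 and the actin regulator Abra.

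In a list of 40 other skeletal muscle genes, 25 were above background on uMT CaCl2 day 7 array 1, against 16 to 23 on the other arrays. The embryonic heavy chain Myh3 stood at 0.96 there, the M-line protein Myom2 at -0.48 and myogenin (Myog), a transcription factor of differentiating myoblasts, at -1.04, and none of the 3 was above background on any other array. These 3 are named because their values were seen, and the list as a whole did not go with them: 6 of the 40 had their highest level of all arrays there, while Tcap (0.73), Myom1 (0.25) and Phkg1 (-1.38) had their lowest. Its summed level was 4.56 on that array, against 4.01 to 7.23 on the others. Myod1, Myf5 and Pax7, which mark muscle precursors, were above background on no array. The summed level of 12 contractile smooth muscle genes was lowest of all arrays there, at 8.73, against 8.94 to 12.72 on the other 29. Skeletal alpha-actin (Acta1) and the kinase Mylk4 went with the smooth muscle genes on that array and not with the myosins: Acta1 was 29th of 30 in order of level there, at 1.96, and Mylk4 27th, at -2.84. Whether muscle cut out with the vessel or RNA within the wall gave this signal was not tested.

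**Figure D2:**
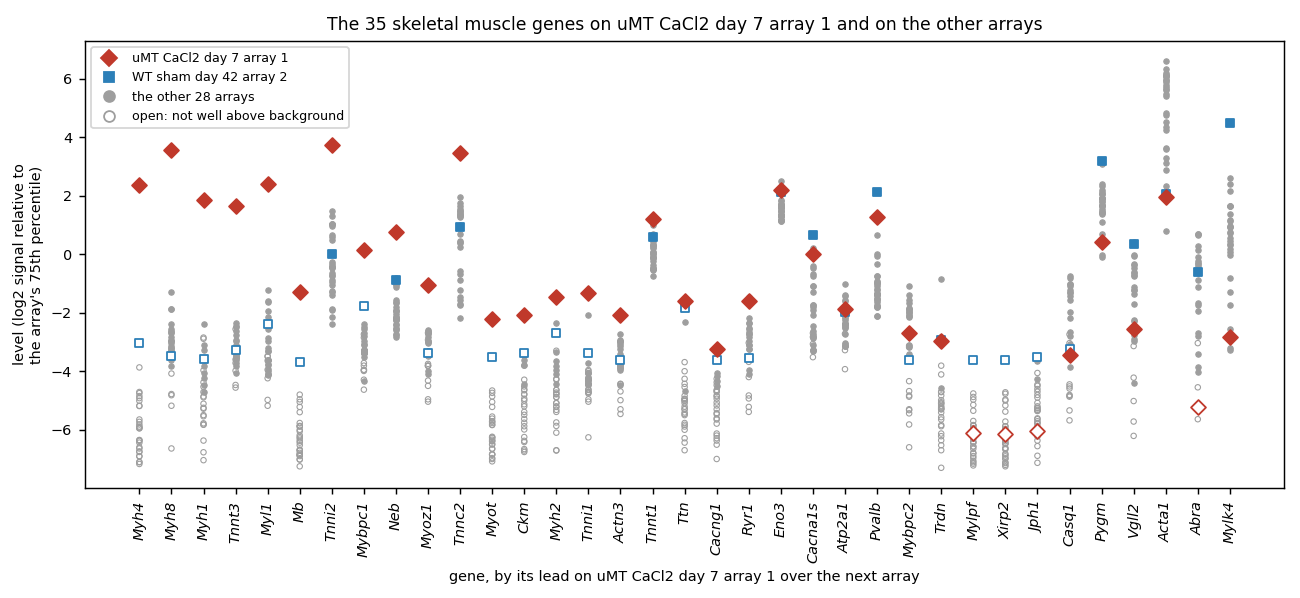
Level (log2 relative to the 75th percentile of the array) of the 35 genes on uMT CaCl2 day 7 array 1 (red diamonds), on WT sham day 42 array 2 (blue squares) and on the other 28 arrays (grey), with open symbols where not well above background; genes are ordered by the lead of the red array over the next. Myh4, at 2.36, is filled on the red array alone, Myh8 leads by 4.85, while Acta1 and Mylk4, at 1.96 and -2.84, lie near the bottom of their own ranges.

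Of the 24 tested members 7 fell and 0 rose after CaCl2 in WT at day 7 (Mybpc2, Mylk4, Tnnc2, Atp2a1, Casq1, Pygm and Vgll2), where 6.59% of all genes tested were called in either direction and 3.61% lower. At day 42 in WT 9 fell and 0 rose, the same 7 with Ckm and Abra, with 10.4% of all genes called and 3.59% lower. In uMT mice 1 fell at day 7, Casq1, with 0.894% of all genes called and 0.391% lower, and 4 fell at day 42, with 6.33% called and 1.71% lower (Casq1, Mybpc2, Tnnc2 and Vgll2). Single arrays moved these counts: without 1 of the WT sham day 7 arrays or without WT CaCl2 day 7 array 2 the WT day 7 count was 4, without WT CaCl2 day 7 array 3 it was 3, and without uMT CaCl2 day 7 array 1 it was 12. The uMT day 7 count was 0 without any 1 of its 3 sham arrays or without uMT CaCl2 day 7 array 1, 2 without array 2 of its CaCl2 group and 3 without WT sham day 42 array 2. The uMT day 42 count was 8 without uMT CaCl2 day 7 array 1, and 2 without array 1 or array 2 of its CaCl2 group. The median change of the 24 was -0.26 in WT at day 7 and -0.81 at day 42, beside medians of 0.09 and 0.05 over all genes. For uMT it was 0.42 at day 7 and -0.65 at day 42, beside -0.02 and -0.04. Without both arrays that stood apart 11 members fell in WT at day 7 (10.4% of all genes lower) and 10 at day 42 (7.15% lower), and 2 rose each time, Tnni2 and Cacna1s (11.3% and 9.31% of all genes higher). In uMT mice 1 then fell at day 7 (0.589% of all genes lower) and 10 at day 42 (8.3% lower), where 1 rose, Tnni2 (10.3% higher). The uMT day 7 median was -0.15 without both, of the other sign. The 24 include genes that passed the filter through 1 group only, so these counts are not counts over the 35.

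**Figure D3:**
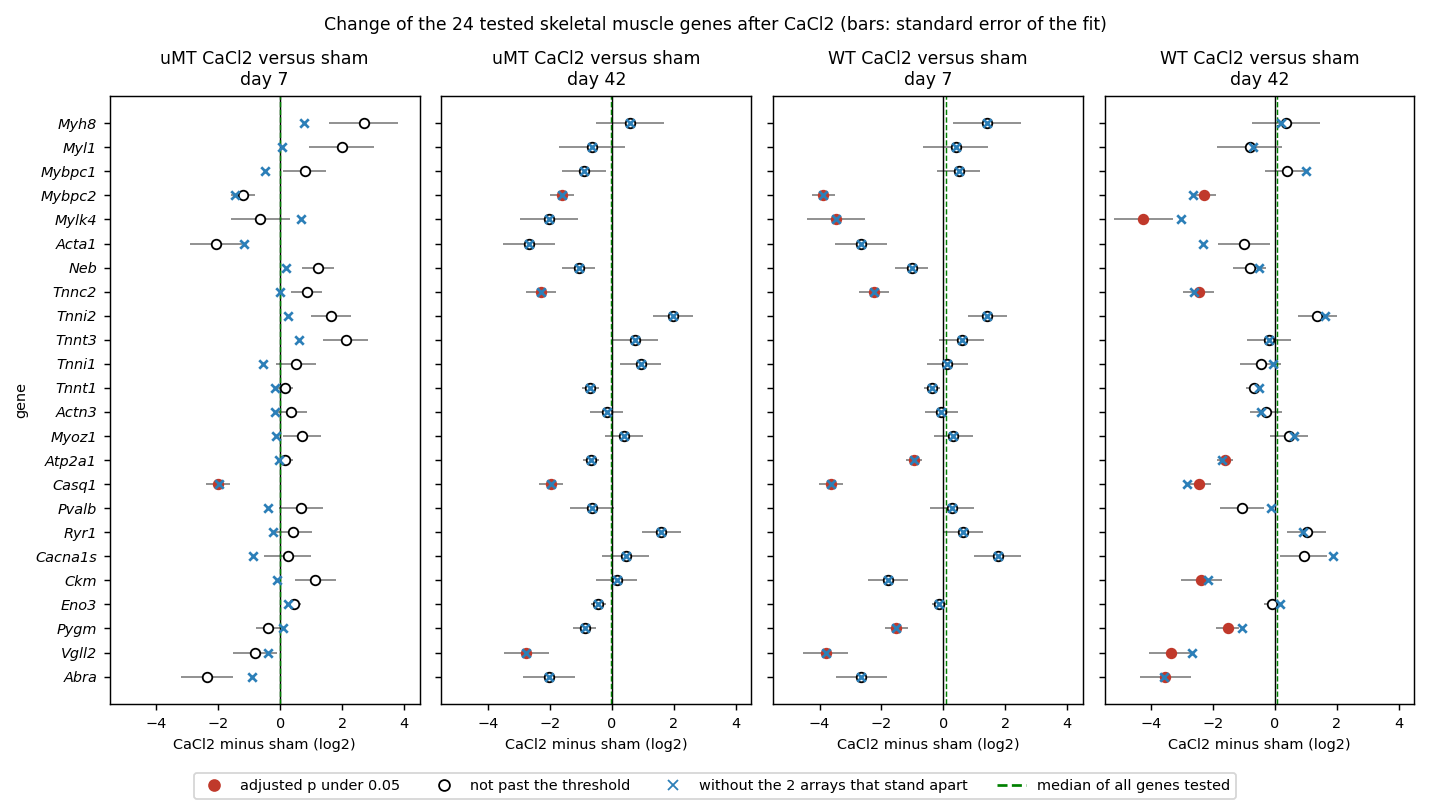
Change after CaCl2 (CaCl2 minus sham, log2) of the 24 tested genes in the 4 comparisons, with standard errors of the fit as bars; red points passed an adjusted p of 0.05, open points did not, blue crosses give the value without the 2 arrays that stood apart, and the dashed line is the median of all genes tested. Casq1 is red in all 4 panels, and the blue crosses leave the open points of Myh8, Myl1 and Tnnt3 in the uMT day 7 panel.

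Slide moved some of these counts. With slide as a fixed block 3 members fell in WT at day 7 (Casq1, Mybpc2 and Vgll2) and 5 at day 42 (the same with Atp2a1 and Tnnc2), all of them among those called without the block, beside 0.112% and 1.14% of all genes lower, and the uMT comparisons could not be fitted. With slide as a random block the counts were 3 and 5 in WT, beside 0.086% and 1.25% of all genes lower, and 0 and 0 in uMT, as over all genes, at an estimated correlation of 0.782 within a slide. That correlation was -0.0687 without WT sham day 42 array 2, and 10, 9, 4 and 9 members then fell in WT day 7, WT day 42, uMT day 7 and uMT day 42, where 12.1%, 5.68%, 8.86% and 9.55% of all genes did. Within the 1 slide that held both WT groups of day 42, with 3 CaCl2 arrays and 1 sham array, 15 of the 24 tested members were lower in CaCl2 and 9 higher. No share over all genes stands beside this count, and 1 sham array gives no spread, so it is not read as a result about the members. The 9 called at day 42, by a fit that holds these same arrays, were among the lower, at differences of -4.01 to -1.2 (log2).

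In the thin filament group, Acta1, the actin of skeletal fibres, averaged 4.71 over the 30 arrays, and its probe lies at chr8:126416197-126416256 in mouse build mm9, minus strand. It stood at 3.58, 2.33 and 2.87 in WT CaCl2 aortas, against 5.87, 5.49 and 5.41 in WT sham aortas at day 7. Acta1 at day 42 stood at 4.36, 3.64 and 3.29 in WT CaCl2 aortas, against 6.08, 2.06 and 6.12 in WT sham aortas. At day 7 the WT groups did not overlap and the change was -2.66 ± 0.84 (SE), with an adjusted p of 0.0561 (limma over all genes), which missed the 0.05 threshold. Leaving out the 2 arrays that stood apart, neither of them in these groups, could not alter the size of this change. With the smaller spread then estimated it passed, with adjusted p = 0.00102. The day 42 difference was -0.99 ± 0.84, adjusted p = 0.43 with all arrays, and the groups overlapped through WT sham day 42 array 2 alone, whose 2.06 was far under the other sham arrays. Without both arrays the day 42 change was -2.34 ± 0.58, adjusted p = 0.00865. In uMT mice Acta1 had 1.96, 4.52 and 4.74 in uMT CaCl2 aortas, against 5.94, 5.70 and 5.78 in uMT sham aortas at day 7. For day 42 the uMT levels of Acta1 were 0.79, 3.10 and 4.23 in uMT CaCl2 aortas, against 5.66, 4.84 and 5.61 in uMT sham aortas. All 6 uMT CaCl2 levels lay below all 6 uMT sham levels, and the changes were -2.07 ± 0.84, adjusted p = 0.229 at day 7 and -2.67 ± 0.84, adjusted p = 0.058 at day 42. Leaving out both arrays gave -2.67 ± 0.52, adjusted p = 0.00107 at day 42 and -1.18 ± 0.58, adjusted p = 0.24 at day 7. The pre groups had 6.19 to 6.60 in uMT and 5.97 to 6.13 in WT.

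Troponin C of fast fibres (Tnnc2), the calcium sensor of the thin filament, fell after CaCl2 in 3 of the 4 comparisons. Its levels in WT at day 7 were -1.48, -1.58 and -2.19 in WT CaCl2 aortas, against 0.42, 0.37 and 0.69 in WT sham aortas. Tnnc2 at day 42 was -0.89, -1.72 and -1.21 in WT CaCl2 aortas, against 1.30, 0.92 and 1.37 in WT sham aortas. The WT groups did not overlap at either time, and the changes were -2.24 ± 0.49, adjusted p = 0.00866 at day 7 and -2.47 ± 0.49, adjusted p = 0.00252 at day 42. The uMT levels of Tnnc2 at day 42 were -1.71, -0.69 and -0.57 in uMT CaCl2 aortas, against 0.96, 1.28 and 1.63 in uMT sham aortas, a fall of 2.28 ± 0.49 (adjusted p = 0.00594). At day 7 the uMT levels of Tnnc2 were 3.45, 0.46 and 1.35 in uMT CaCl2 aortas, against 1.56, 0.23 and 0.93 in uMT sham aortas, and the groups overlapped. That comparison was 0.85 ± 0.49, adjusted p = 0.427, and its adjusted p was 0.998 without both arrays.

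Fast troponin I (Tnni2), the inhibitory subunit, lay the other way. Its WT levels were 0.49, 1.04 and 1.03 in WT CaCl2 aortas, against -0.73, -0.32 and -0.65 in WT sham aortas at day 7. Tnni2 at day 42 in WT was 0.67, 0.58 and 1.46 in WT CaCl2 aortas, against -0.43, -0.01 and -0.95 in WT sham aortas. In uMT aortas of day 42 Tnni2 had 1.32, 1.04 and 0.96 in uMT CaCl2 aortas, against -0.28, -1.27 and -1.05 in uMT sham aortas. CaCl2 arrays were above all sham arrays in each of these 3 comparisons, yet none passed the threshold with all arrays, the smallest adjusted p being 0.0692. Without both arrays the same 3 changes were 1.42 ± 0.27, adjusted p = 0.000769, then 1.60 ± 0.30, adjusted p = 0.00113, and 1.97 ± 0.27, adjusted p = 3.78e-05 in the order above. At day 7 in uMT mice the levels of Tnni2 were 3.72, -0.47 and -0.42 in uMT CaCl2 aortas, against -0.72, -0.44 and -0.89 in uMT sham aortas, and the value rests on array 1: the change was 1.63 with it and 0.24 ± 0.30, adjusted p = 0.667 without both. The other thin filament members were called in no CaCl2 comparison with all arrays. Slow troponin T (Tnnt1) ran only from -0.76 to 1.21 over the 30 arrays, and nebulin (Neb), which sets thin filament length, from -2.83 to 0.75. Without both arrays Neb fell at day 7 in WT (-1.03 ± 0.28, adjusted p = 0.0128) and at day 42 in uMT (-1.07 ± 0.28, adjusted p = 0.0107), and Tnnt1 at day 42 in uMT (-0.69 ± 0.19, adjusted p = 0.0161). Tnnt3 and slow troponin I (Tnni1), above background on 23 and 10 arrays, passed in no CaCl2 comparison, with changes of -0.20 to 2.11 and -0.46 to 0.93. In uMT at day 7 these changes were 2.11 and 0.51 with all arrays, and 0.62 and -0.55 without both.

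**Figure D4:**
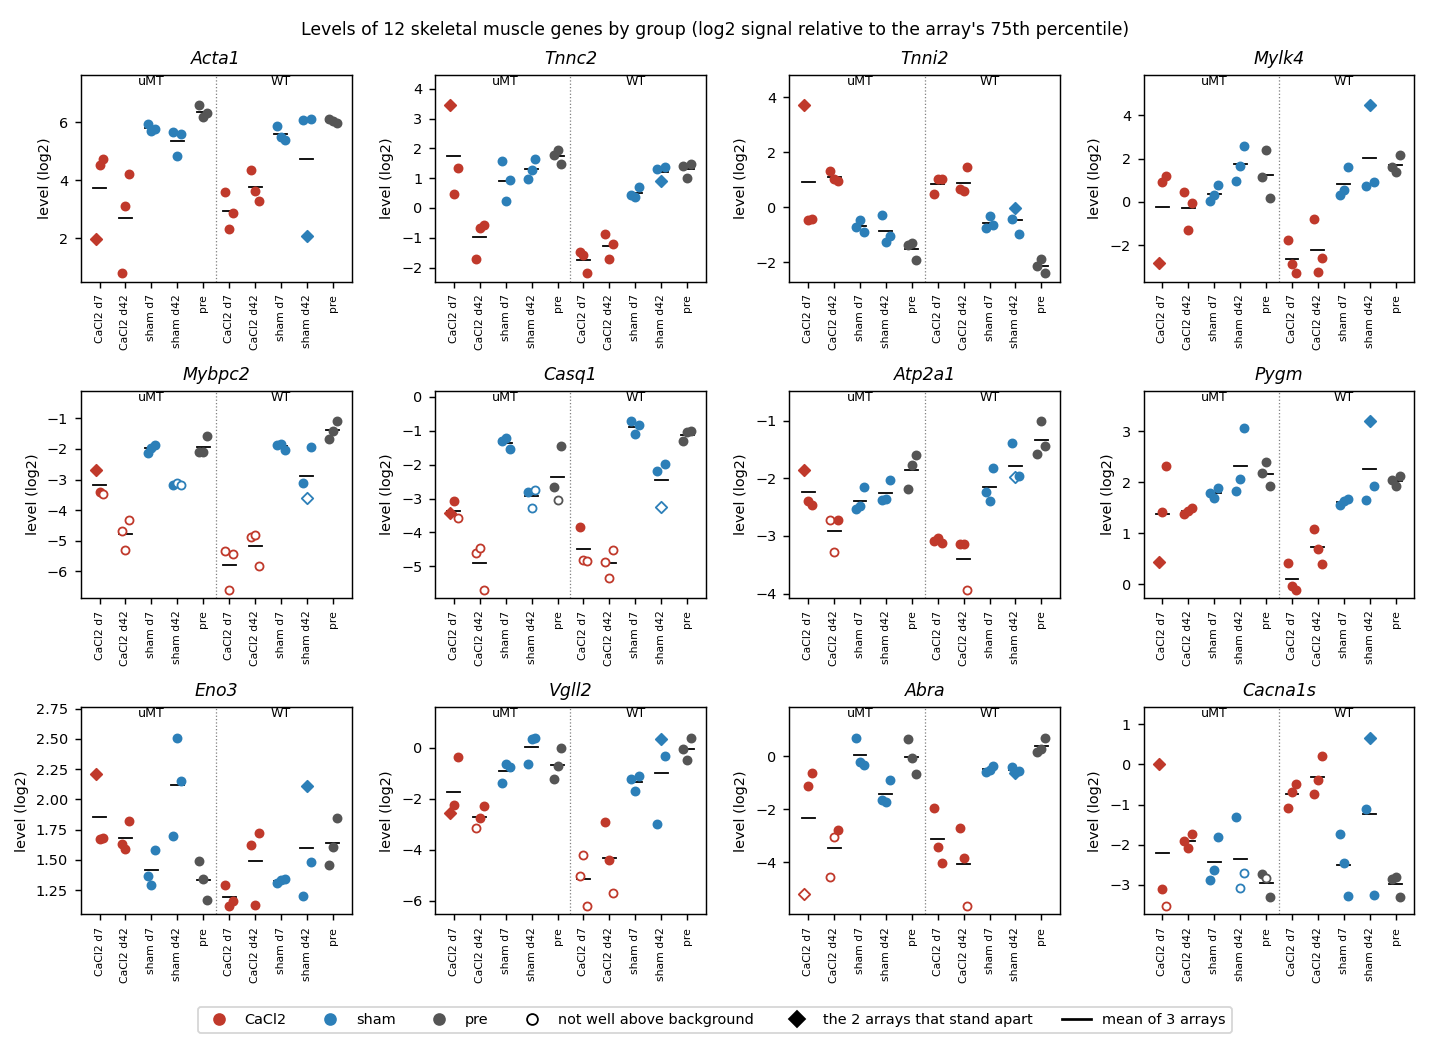
Level of 12 of the genes in each group (log2 relative to the 75th percentile of the array), uMT on the left and WT on the right of each panel; points are single arrays, open where not well above background, bars are means of 3, and diamonds mark uMT CaCl2 day 7 array 1 and WT sham day 42 array 2. Acta1, Mylk4, Mybpc2, Casq1, Pygm, Vgll2 and Abra have lower means in all 4 CaCl2 groups than in the sham groups of the same day, and Tnni2 has higher ones.

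The promoters of the 4 members with the highest mean level are shown because they split: CaCl2 minus sham in WT at day 7 was -2.66 for Acta1, -2.24 for Tnnc2, -1.52 for Pygm and -0.14 for Eno3, and Tnnc2 and Pygm passed. Each runs from 250 bases before to 50 after the start of the RefSeq gene in build GRCm38.p6, 5′ to 3′ on the gene's strand. Capitals mark matches to motifs that muscle regulators are known to bind: the E-box CAGCTG of myogenic factors, the MCAT box CATTCC of TEAD factors, the MEF2 site, and the CArG box of serum response factor, each searched on both strands. No matched motifs overlapped in these 4.
Acta1 (chr8:123894726-123895025, minus strand): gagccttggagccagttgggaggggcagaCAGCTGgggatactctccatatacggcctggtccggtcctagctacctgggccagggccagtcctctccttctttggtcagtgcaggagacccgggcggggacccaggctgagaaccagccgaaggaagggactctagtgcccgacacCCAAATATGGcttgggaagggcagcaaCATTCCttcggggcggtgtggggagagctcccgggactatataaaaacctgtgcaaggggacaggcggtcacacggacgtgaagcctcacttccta
Pygm (chr19:6384158-6384457, plus strand): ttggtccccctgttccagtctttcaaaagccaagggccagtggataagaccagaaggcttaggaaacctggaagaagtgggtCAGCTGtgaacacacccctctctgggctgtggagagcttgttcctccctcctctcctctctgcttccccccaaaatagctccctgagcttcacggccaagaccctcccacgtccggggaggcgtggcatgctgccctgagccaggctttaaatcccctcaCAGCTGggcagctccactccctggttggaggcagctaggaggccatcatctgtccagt
Eno3 (chr11:70656926-70657225, plus strand): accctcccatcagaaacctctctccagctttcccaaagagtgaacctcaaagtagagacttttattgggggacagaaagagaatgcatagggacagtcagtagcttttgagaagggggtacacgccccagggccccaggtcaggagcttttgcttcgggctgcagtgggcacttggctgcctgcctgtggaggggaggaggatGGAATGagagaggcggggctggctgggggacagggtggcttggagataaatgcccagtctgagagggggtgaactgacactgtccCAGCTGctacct
Tnnc2 (chr2:164779685-164779984, minus strand): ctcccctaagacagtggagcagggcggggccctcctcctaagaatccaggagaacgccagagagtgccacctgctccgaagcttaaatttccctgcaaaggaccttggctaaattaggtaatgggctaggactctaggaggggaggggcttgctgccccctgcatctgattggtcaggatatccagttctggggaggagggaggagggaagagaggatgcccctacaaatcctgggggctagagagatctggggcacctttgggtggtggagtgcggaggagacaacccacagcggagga
The window of Acta1 held 1 CArG box, 1 E-box and 1 MCAT box, that of Pygm 2 E-boxes, that of Eno3 1 E-box and 1 MCAT box, and that of Tnnc2 none of the letters searched. Promoters were in the table for 25 of the 35 members, 29 windows in all. An E-box stood in 55.2% of the 29 windows and in 16.3% of all 32851 promoters of the table. The MCAT box stood in 27.6% of the members' windows and in 14.7% of all, the MEF2 site in 24.1% and 3.19%, and the CArG box in 6.9%, those of Acta1 and Myh4, and 1.63%.

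Of the 9 thick filament and myosin members, Mylk4 and Mybpc2 passed in a CaCl2 comparison. Mylk4, a kinase of the myosin light chain kinase family, was above background on all arrays. It stood at -1.75, -2.86 and -3.29 in WT CaCl2 aortas, against 0.30, 0.56 and 1.63 in WT sham aortas at day 7. Mylk4 at day 42 stood at -0.80, -3.22 and -2.57 in WT CaCl2 aortas, against 0.74, 4.47 and 0.93 in WT sham aortas. The WT groups did not overlap and Mylk4 fell at both times (-3.46 ± 0.94, adjusted p = 0.0281 at day 7, -4.25 ± 0.94, adjusted p = 0.00565 at day 42). WT sham day 42 array 2 had the highest Mylk4 level of all arrays, and without both arrays the day 42 change was -3.04 ± 0.68, adjusted p = 0.00448. In uMT mice Mylk4 had -2.84, 0.92 and 1.18 in uMT CaCl2 aortas, against 0.06, 0.34 and 0.76 in uMT sham aortas at day 7. Its uMT levels at day 42 were 0.45, -1.30 and -0.04 in uMT CaCl2 aortas, against 0.96, 1.66 and 2.60 in uMT sham aortas. The uMT groups overlapped at day 7 and not at day 42, and neither change passed (-0.64 ± 0.94, adjusted p = 0.815 and -2.03 ± 0.94, adjusted p = 0.238). Without both arrays the day 42 fall passed (-2.03 ± 0.61, adjusted p = 0.0229), and the day 7 value was -0.64 with all arrays and 0.66 without, a change of sign.

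The fast myosin-binding protein C gene (Mybpc2), whose product holds myosin in the thick filament, lay near background. Its probe (chr7:51759105-51759164 in mm9, minus strand) read -5.33, -6.60 and -5.44 in WT CaCl2 aortas, against -1.86, -1.84 and -2.02 in WT sham aortas at day 7. Mybpc2 at day 42 read -4.87, -4.83 and -5.82 in WT CaCl2 aortas, against -3.12, -3.61 and -1.94 in WT sham aortas. No WT CaCl2 array was above background. The day 7 fall (-3.88 ± 0.38, adjusted p = 8.04e-06 with limma) is thus at least 6.83-fold, taken against the weakest signal above background. The day 42 fall (-2.29 ± 0.38, adjusted p = 0.000617) has no fold, since WT sham day 42 array 2 was below background too. In uMT mice Mybpc2 read -4.68, -5.30 and -4.34 in uMT CaCl2 aortas, against -3.18, -3.13 and -3.18 in uMT sham aortas at day 42, where 1 of the 6 arrays was above background, so the fall that the test called (-1.61 ± 0.38, adjusted p = 0.0108) has no fold. The uMT day 7 levels were -2.68, -3.41 and -3.48 in uMT CaCl2 aortas, against -2.13, -1.96 and -1.86 in uMT sham aortas and did not overlap, with a change of -1.21 ± 0.38, adjusted p = 0.116. Of the other 7, Myh8, Myl1 and the slow myosin-binding protein C (Mybpc1) were tested and passed in no CaCl2 comparison. Myh8 had -3.13, -2.92 and -3.32 in WT CaCl2 aortas, against -3.62, -5.18 and -4.78 in WT sham aortas at day 7. For uMT at day 7 Myh8 had 3.55, -1.29 and -3.21 in uMT CaCl2 aortas, against -2.71, -2.82 and -3.50 in uMT sham aortas. The WT groups of Myh8 did not overlap, at a change of 1.40 ± 1.10, adjusted p = 0.533, and the uMT groups did. At day 42 the Myh8 changes were 0.35 in WT and 0.59 in uMT. The uMT day 7 changes of Myh8, Myl1 and Mybpc1, 2.69, 1.98 and 0.79, rest on uMT CaCl2 day 7 array 1, and the values were 0.76, 0.06 and -0.49 without both arrays. Myh1, Myh2, Myh4 and Mylpf were not tested, and their medians over the arrays were -4.62, -4.75, -5.93 and -6.27.

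Z-disc and scaffold members gave no called change with CaCl2. The fast-fibre alpha-actinin Actn3 and the calcineurin-binding protein Myoz1 were tested, above background on 19 and 18 arrays. Myoz1 read -2.58, -3.04 and -2.83 in WT CaCl2 aortas, against -2.96, -2.96 and -3.49 in WT sham aortas at day 7, and the groups overlapped. Actn3 in the same WT comparison read -3.78, -4.44 and -4.48 in WT CaCl2 aortas, against -3.97, -3.06 and -5.46 in WT sham aortas, overlapping as well. Over the 4 CaCl2 comparisons their changes ran from -0.29 to 0.35 for Actn3 and from 0.32 to 0.70 for Myoz1. Both had their highest level on uMT CaCl2 day 7 array 1, and their uMT day 7 changes were -0.17 and -0.14 without both arrays. Ttn, by its brightest probe, was above background on that array, on 2 uMT CaCl2 arrays of day 42 and on 1 WT CaCl2 array of day 7, at levels of -1.61 or lower.

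In the group for excitation and calcium, Casq1 and Atp2a1 fell after CaCl2. Calsequestrin 1 (Casq1), the calcium store protein of fast fibres, stood at -3.84, -4.81 and -4.84 in WT CaCl2 aortas, against -0.73, -1.10 and -0.82 in WT sham aortas at day 7. Casq1 at day 42 stood at -4.87, -5.34 and -4.52 in WT CaCl2 aortas, against -2.19, -3.24 and -1.97 in WT sham aortas. It fell at both times in WT (-3.62 ± 0.39, adjusted p = 3.22e-05 at day 7 and -2.45 ± 0.39, adjusted p = 0.000531 at day 42), with 1 of the 6 CaCl2 arrays above background. The day 42 fall is given no fold, since WT sham day 42 array 2 was below background as well as all CaCl2 arrays of that day. In uMT mice Casq1 stood at -3.44, -3.08 and -3.56 in uMT CaCl2 aortas, against -1.30, -1.21 and -1.55 in uMT sham aortas at day 7. Its uMT levels at day 42 were -4.59, -4.45 and -5.68 in uMT CaCl2 aortas, against -2.80, -3.28 and -2.74 in uMT sham aortas. Casq1 was the only member to pass in all 4 CaCl2 comparisons, with uMT changes of -2.01 ± 0.39, adjusted p = 0.0206 at day 7 and -1.97 ± 0.39, adjusted p = 0.00338 at day 42. Without both arrays the uMT day 7 value was -1.97 ± 0.40, adjusted p = 0.0252. Without uMT CaCl2 day 7 array 1 alone it was -1.97 ± 0.44 and did not pass (limma, adjusted p = 0.148). The uMT day 7 call was lost in 8 of its 43 alternatives. Few uMT day 42 arrays measured Casq1: 1 of 3 uMT sham arrays and no CaCl2 array was above background, so that fall has no fold.

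The fast calcium pump SERCA1 (Atp2a1) varied little within a group. It had -3.08, -3.04 and -3.13 in WT CaCl2 aortas, against -2.24, -2.39 and -1.81 in WT sham aortas at day 7. Atp2a1 at day 42 had -3.14, -3.14 and -3.93 in WT CaCl2 aortas, against -1.39, -1.98 and -1.96 in WT sham aortas. Neither pair of WT groups overlapped, and the falls were -0.94 ± 0.26, adjusted p = 0.032 and -1.62 ± 0.26, adjusted p = 0.00055. The day 7 call was lost in 10 of its 44 alternatives. At day 42 WT CaCl2 array 3 and WT sham array 2 were below background, so that fall is no exact size. In uMT mice Atp2a1 had -2.72, -3.28 and -2.73 in uMT CaCl2 aortas, against -2.38, -2.35 and -2.03 in uMT sham aortas at day 42, without overlap. Of those 3 uMT CaCl2 arrays 1 was above background. The uMT changes were -0.66 at day 42 and 0.15 at day 7, and neither passed. The voltage sensor Cacna1s lay higher after CaCl2 in WT, at -1.09, -0.68 and -0.48 in WT CaCl2 aortas, against -1.74, -2.46 and -3.28 in WT sham aortas at day 7. Cacna1s at day 42 was -0.75, -0.39 and 0.21 in WT CaCl2 aortas, against -1.10, 0.66 and -3.26 in WT sham aortas, where the groups overlapped through the dim array. Neither change passed with all arrays (1.75 ± 0.76, adjusted p = 0.19, and 0.92 ± 0.76, adjusted p = 0.42). Without both arrays Cacna1s rose in WT at day 7 (1.75 ± 0.48, adjusted p = 0.0128) and at day 42 (1.87 ± 0.54, adjusted p = 0.0211). The calcium release channel Ryr1 ran from -5.39 to -1.47, with CaCl2 changes of 0.40 to 1.59 that did not pass, the lowest of which, in uMT at day 7, was -0.24 without both arrays. The calcium buffer Pvalb was brightest on WT sham day 42 array 2 (2.13) and on uMT CaCl2 day 7 array 1 (1.26), and no CaCl2 change of it passed. Pvalb stood at -0.93, -1.34 and -0.35 in WT CaCl2 aortas, against -0.73, 2.13 and -0.76 in WT sham aortas at day 42, and the groups overlapped. In uMT at day 7 Pvalb stood at 1.26, -1.81 and -2.11 in uMT CaCl2 aortas, against -1.51, -1.35 and -1.78 in uMT sham aortas, with overlap too. Its changes were 0.27 and -1.08 in WT and 0.66 and -0.63 in uMT at days 7 and 42. Without both arrays Pvalb had -0.13 in WT at day 42 and -0.41 in uMT at day 7, which is of the other sign. Trdn, Jph1 and Cacng1, which anchor or modulate the calcium channels, were above background on 3, 3 and 6 arrays and were not tested.

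Among the 4 genes of energy and oxygen, the muscle glycogen phosphorylase Pygm fell after CaCl2 in WT mice. Its levels were 0.42, -0.03 and -0.10 in WT CaCl2 aortas, against 1.55, 1.63 and 1.67 in WT sham aortas at day 7. Pygm at day 42 had 1.09, 0.70 and 0.40 in WT CaCl2 aortas, against 1.65, 3.19 and 1.93 in WT sham aortas. The WT groups did not overlap, and the changes were -1.52 ± 0.38, adjusted p = 0.0187 at day 7 and -1.53 ± 0.38, adjusted p = 0.0127 at day 42. Without WT sham day 42 array 2 alone the day 42 change was -1.06 ± 0.37 and did not pass (limma, adjusted p = 0.0593). Without both arrays it was -1.06 ± 0.29 and passed (adjusted p = 0.0162). The uMT levels of Pygm at day 42 were 1.38, 1.44 and 1.49 in uMT CaCl2 aortas, against 1.83, 2.07 and 3.07 in uMT sham aortas, also without overlap, and that change did not pass with all arrays (-0.88 ± 0.38, adjusted p = 0.199) but did without both (-0.88 ± 0.26, adjusted p = 0.0209). At day 7 in uMT mice Pygm had 0.43, 1.41 and 2.32 in uMT CaCl2 aortas, against 1.78, 1.69 and 1.88 in uMT sham aortas, and the groups overlapped. That change was -0.40 with all arrays and 0.08 without both. Eno3, the enolase of muscle, was among the steadiest members, from 1.12 to 2.51 over all arrays (SD 0.34). It had 1.29, 1.12 and 1.16 in WT CaCl2 aortas, against 1.31, 1.33 and 1.34 in WT sham aortas at day 7, without overlap by a narrow margin, and its 4 CaCl2 changes of -0.44 to 0.44 did not pass. Ckm was called lower in WT at day 42 (-2.38 ± 0.66, adjusted p = 0.0217), at -6.25, -6.76 and -5.63 in WT CaCl2 aortas, against -3.81, -3.37 and -4.29 in WT sham aortas. None of those 6 arrays was above background, so the call compares spots below the scanner's limit and is given no fold. The arrays on which Ckm was above background were uMT CaCl2 day 7 array 1, the 3 WT pre arrays, 1 uMT pre array and 1 WT sham array of day 7, at -2.08 on the first and -3.45 or lower on the rest.

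Both regulators fell after CaCl2 in WT at day 42. Vgll2, a cofactor of TEAD transcription factors in muscle, stood at -5.02, -4.22 and -6.21 in WT CaCl2 aortas, against -1.22, -1.71 and -1.11 in WT sham aortas at day 7. Vgll2 at day 42 stood at -2.91, -4.39 and -5.72 in WT CaCl2 aortas, against -2.98, 0.34 and -0.33 in WT sham aortas. It fell in WT at both times (-3.80 ± 0.72, adjusted p = 0.00438 at day 7, at least 9.7-fold, and -3.35 ± 0.72, adjusted p = 0.00462 at day 42), with overlap at day 42 through sham array 1. The uMT levels of Vgll2 at day 42 were -3.14, -2.75 and -2.27 in uMT CaCl2 aortas, against -0.63, 0.36 and 0.38 in uMT sham aortas, a change of -2.76 ± 0.72, adjusted p = 0.0219. At day 7 the uMT levels were -2.55, -2.26 and -0.36 in uMT CaCl2 aortas, against -1.36, -0.62 and -0.76 in uMT sham aortas and the change of -0.81, or -0.40 without both arrays, did not pass. Abra, which activates serum response factor through actin, had -2.71, -3.85 and -5.64 in WT CaCl2 aortas, against -0.42, -0.61 and -0.56 in WT sham aortas at day 42. Abra at day 7 in WT had -1.94, -3.42 and -4.03 in WT CaCl2 aortas, against -0.58, -0.51 and -0.35 in WT sham aortas. The WT groups did not overlap at either time, and Abra fell at day 42 (-3.54 ± 0.83, adjusted p = 0.00799) and missed the threshold at day 7 (-2.65 ± 0.83, adjusted p = 0.0548). In uMT mice Abra had -5.21, -1.11 and -0.62 in uMT CaCl2 aortas, against 0.68, -0.22 and -0.31 in uMT sham aortas at day 7, a difference of -2.36 ± 0.83, adjusted p = 0.162, with a value of -0.91 without both arrays. Its uMT levels at day 42 were -4.55, -3.04 and -2.79 in uMT CaCl2 aortas, against -1.66, -1.74 and -0.89 in uMT sham aortas, with a change of -2.03 ± 0.83, adjusted p = 0.163, and -2.03 ± 0.59, adjusted p = 0.0192 without both.

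The sham groups serve in these comparisons and in those with CaCl2, so the values are not independent. Averaged over genotypes, 2 of the 24 members were called in sham at day 7 against pre, where 6.26% of all genes were: Ryr1 rose (1.48 ± 0.44, adjusted p = 0.0461) and Atp2a1 fell (-0.67 ± 0.18, adjusted p = 0.0284). Ryr1 had -2.36, -2.17 and -2.96 in WT sham, against -5.39, -3.96 and -5.22 in WT pre. In uMT it had -3.23, -2.51 and -4.10 in sham, against -3.68, -4.83 and -3.12 in pre, which overlapped. Of the pre arrays 1 of 3 WT and 1 of 3 uMT measured Ryr1 above background, so its differences are no exact sizes, and its call was lost in 24 of its 44 alternatives. Within the slide that held both WT groups the difference of Ryr1 was 2.36, and on the slide with uMT groups 0.70. For Atp2a1 the 2 values were -0.81 and -0.71. At day 42 against pre 2 members fell, Mybpc2 (-1.37 ± 0.27, adjusted p = 0.0117) and Casq1 (-0.95 ± 0.28, adjusted p = 0.0406), where 10.7% of all genes were called, and Casq1 did not pass without both arrays (-0.76 ± 0.27, adjusted p = 0.0769). Tnni2 missed the threshold at both times (1.20 ± 0.45, adjusted p = 0.13, and 1.16 ± 0.45, adjusted p = 0.0748) and rose at both without the 2 arrays, by 1.20 and 1.05 (adjusted p = 0.000146 and 0.00745). Across the 5 conditions uMT aortas had higher Tnnc2 (0.95 ± 0.22, adjusted p = 0.0201) and Vgll2 (1.18 ± 0.32, adjusted p = 0.0469) than WT, 2 of 24 members beside 2.97% of all genes. WT arrays lay on 3 slides and uMT arrays on the other 2, apart from uMT pre array 1, which shared a slide with WT arrays, so slide and genotype can hardly be told apart. With slide as a random block 0 of the 24 members passed in uMT against WT with limma, adjusted or not, beside 0.0086% of all genes, and the Vgll2 call was lost in 29 of its 42 alternatives. Without both arrays 5 members were higher in uMT (Tnnc2, Vgll2, Mylk4, Pygm and Eno3) and 2 lower (Neb and Cacna1s), where 14% of all genes were higher and 15.5% lower, with Tnnc2 at 0.75 (adjusted p = 0.00318).

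The response to CaCl2 was set against itself in the 2 genotypes as a difference of differences, uMT minus WT. At day 7 0 members and 0% of all genes passed with limma, while 9 of 24 members had an unadjusted p under 0.05. So had 981 of all 23268 genes. At day 42 0 members and 0.107% of all genes passed, and 2 members had an unadjusted p under 0.05, as had 1317 of all 23268 genes. The day 7 difference with the smallest adjusted p was that of Mybpc2, 2.68 ± 0.53, adjusted p = 0.246, from CaCl2 minus sham of -1.21 in uMT and -3.88 in WT. Without both arrays 4 members passed at day 7, with 1.38% of all genes higher in that sense. These were Mybpc2 (2.42 ± 0.49, adjusted p = 0.0163), Tnnc2 (2.24 ± 0.50, adjusted p = 0.0225), Mylk4 (4.13 ± 0.91, adjusted p = 0.022) and Pygm (1.60 ± 0.39, adjusted p = 0.0308). All 4 fell in WT, while in uMT the CaCl2 change was then -1.46 for Mybpc2, 0.66 for Mylk4, 0.08 for Pygm and near 0 for Tnnc2. No WT CaCl2 array measured Mybpc2 above background at day 7, so its values here are no exact sizes. The uMT day 7 CaCl2 group then held 2 arrays. No alternative with all 30 arrays gave a call at either day.

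Markers of the vessel wall also fell after CaCl2, except in uMT at day 7, where Casq1 was called and none of them was. All 12 genes of a contractile smooth muscle list were tested, and 10 fell in WT at day 7, 8 in WT at day 42, 0 in uMT at day 7 and 5 in uMT at day 42, with none rising. In uMT at day 7 that list had 3 genes with an unadjusted p under 0.05 and a median of -1.12, beside -2.68 in WT. Their summed level (log2 of the sum of their relative signals) ran from 8.94 to 9.97 in WT CaCl2 and 11.11 to 11.42 in WT sham at day 7. At day 42 it ran from 9.74 to 10.52 in WT CaCl2 and 11.70 to 12.72 in WT sham. The uMT ranges were 8.73 to 11.56 in CaCl2 and 11.07 to 11.09 in sham at day 7, and 9.66 to 10.92 and 11.49 to 12.41 at day 42. The low end at day 7 is uMT CaCl2 day 7 array 1, and the other CaCl2 arrays stood at 10.98 and 11.56. Without both arrays the uMT day 7 median was -0.06 with 0 of 12 at an unadjusted p under 0.05, and all 12 genes fell in each of the other 3 comparisons. For smooth muscle alpha-actin (Acta2) CaCl2 minus sham was -2.07 in WT at day 7 (adjusted p = 0.0204), for calponin (Cnn1) -2.69 (adjusted p = 0.01) and for transgelin (Tagln) -1.49, which did not pass (adjusted p = 0.0879). In bulk tissue fewer cells of a type and less RNA per cell cannot be told apart, and the part of smooth muscle in the members' falls was not tested.

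**Figure D5:**
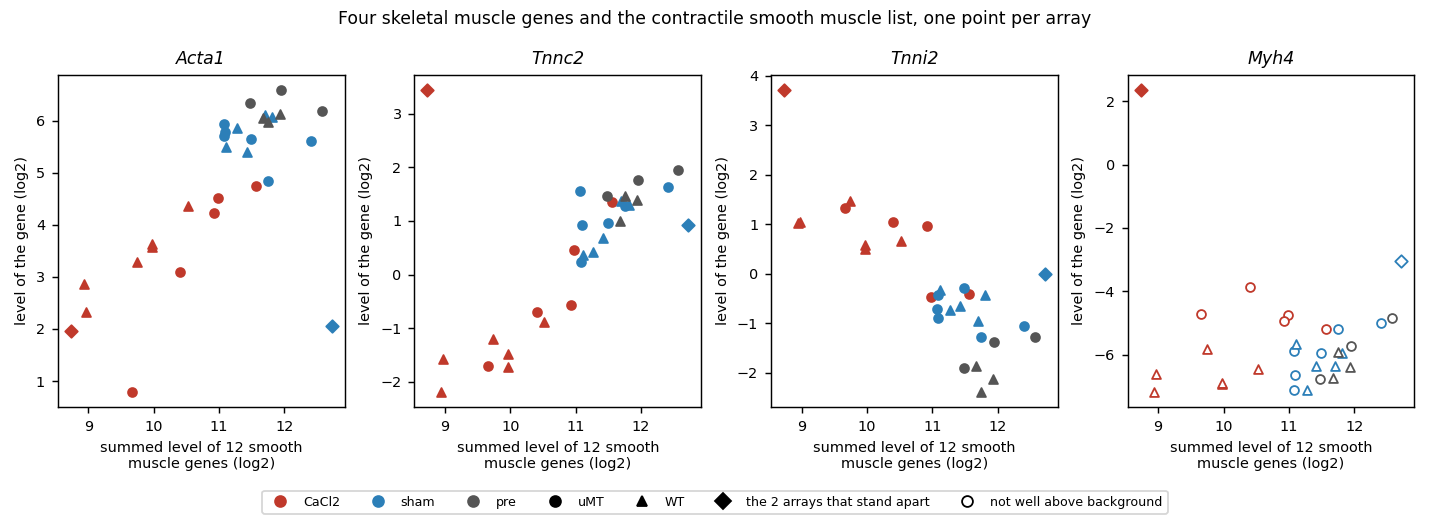
Level of Acta1, Tnnc2, Tnni2 and Myh4 on each array against the summed level of 12 contractile smooth muscle genes (both log2, relative to the 75th percentile of the array), coloured by treatment, with diamonds for the 2 arrays that stood apart and open symbols where not well above background. The WT CaCl2 and the uMT CaCl2 day 42 arrays lie left of all sham and pre arrays, with lower Tnnc2 and higher Tnni2. Acta1 is lower there than on sham and pre arrays other than WT sham day 42 array 2 (2.06). Among uMT CaCl2 day 7 arrays, array 1 lies furthest left (8.73) with the highest Tnnc2 of all arrays (3.45). Arrays 2 and 3 of that group lie at 10.98 and 11.56, with Tnni2 at -0.47 and -0.42. Myh4 is above background on 1 array, at 2.36.

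Among 40 further skeletal muscle genes, 24 were tested. In WT at day 7 6 of them fell and 0 rose, and at day 42 7 fell and 1 rose, while in uMT 1 fell at day 7 and 3 at day 42. Without both arrays 10, 8, 0 and 6 fell and 2, 2, 0 and 1 rose in WT day 7, WT day 42, uMT day 7 and uMT day 42, with 4 at an unadjusted p under 0.05 in uMT at day 7 (limma). Leaving out WT sham day 42 array 2 alone gave 10 in WT at day 7 and 5 in uMT at day 42, and leaving out uMT CaCl2 day 7 array 1 alone gave 0 in uMT at day 7. Telethonin (Tcap), the cap of titin, was above background on all 30 arrays and fell in all 4 comparisons, with changes of -3.60 and -1.91 in WT and -2.44 and -2.57 in uMT at days 7 and 42. Its uMT day 7 call rests on uMT CaCl2 day 7 array 1, where Tcap was lowest, and the value was -1.32 (adjusted p = 0.0933) without both arrays, and its WT day 42 call was lost without WT sham day 42 array 2 alone. Myomesin 1 (Myom1), of the M-line, and the muscle phosphofructokinase Pfkm were on all arrays too. Myom1 fell in WT at day 7, by 3.16, and Pfkm in both genotypes at day 42, by 0.79 in WT and 0.90 in uMT. The gene that rose, in WT at day 42, was Cox6a2, a muscle isoform of cytochrome oxidase (2.44, adjusted p = 0.00281). Of the 40, 10 were above background on no array. Of 10 slow fibre genes 6 were tested: Myoz2 alone fell in WT, at both times (-3.36 and -3.12), and none passed in uMT, where 1 gene at each time had an unadjusted p under 0.05 (limma). Of 9 cardiac genes 8 were tested. Ryr2 fell in WT at day 7 (-3.39), Tnni3 rose at day 42 in WT (0.92) and in uMT (0.97), Nppa fell at day 42 in uMT, and none passed in uMT at day 7, where 2 had an unadjusted p under 0.05.

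Lists for other tissues that a dissected aorta can carry were read the same way. Of 7 white adipocyte genes tested 0 passed in a CaCl2 comparison with limma, and 1, 1, 3 and 5 had an unadjusted p under 0.05 in WT at days 7 and 42 and uMT at days 7 and 42. The summed level of that list spanned 4.93 to 6.83 in uMT CaCl2 and 6.07 to 8.81 in uMT sham at day 42. Of 6 brown adipocyte genes tested Cidea fell in WT at day 7, Cidea, Ppargc1a and Fabp3 fell in WT at day 42, Fabp3 fell in uMT at day 42, and 0 passed in uMT at day 7 (2 at unadjusted p). The defining Ucp1 was above background on no array. Of the Schwann cell genes Mag rose in WT at day 7, Mbp at day 42 in WT, and Mbp and Sox10 at day 42 in uMT. In uMT at day 7 none of these 3 passed with limma, adjusted or not. Of 6 leukocyte genes 4 rose in WT at day 42 (Ptprc, Cd68, Cd14 and Csf1r) and 3 in uMT (Ptprc, Cd14 and Csf1r), while at day 7 0 passed in either genotype, with 2 at unadjusted p in WT and 0 in uMT. Csf1r, a receptor of macrophages, rose by 1.85 in WT and 1.65 in uMT at day 42. The summed leukocyte level spanned 7.87 to 8.29 in WT CaCl2 and 7.65 to 8.14 in WT sham at day 42. Without both arrays, in the order WT day 7, WT day 42 and uMT day 42, 3, 3 and 3 brown adipocyte genes fell, 2, 4 and 5 leukocyte genes rose, 2, 2 and 2 slow fibre genes fell and 2, 1 and 2 cardiac genes fell. In uMT at day 7 these 4 lists then had no call, with 1, 1, 2 and 2 genes at an unadjusted p under 0.05. Of all genes 10.4%, 7.15% and 8.3% were lower without both arrays in WT day 7, WT day 42 and uMT day 42. In the same order 11.3%, 9.31% and 10.3% were higher. White adipocyte and Schwann cell counts without both arrays are not given. Whether these shifts bear on the members was not tested.

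The non-members whose level followed the mean of the 24 tested members most closely over the 30 arrays, among 15992 genes found in the RefSeq table, were Myl4, an atrial and embryonic myosin light chain (Pearson r = 0.831), Srl, which binds calcium in the sarcoplasmic reticulum (r = 0.771), and Ctxn1 (r = 0.747). Then came Rrn3, Rdx, Pm20d2, Il17rc, Ccdc60, Chrna1 and Cisd1, with r of 0.664 to 0.72. Leaving out both arrays that stood apart gave 28 arrays and other names: Bdh1, Ccdc68 and the tropomyosin Tpm2, one of the smooth muscle list, led, with r of 0.96, 0.958 and 0.954, and the 10 nearest had r of 0.946 or more. These are likenesses over arrays that share treatment and slide, and are given as a description.

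Several probes were on the array for 10 members, and they did not all give the same pattern. Myh8 had 4 probes, of which the brightest was above background on 22 arrays and the others on 1, 0 and 0. The Pvalb probes lie at chr15:78021951-78022010 and chr15:78021549-78021608 in mm9. The second was above background on uMT CaCl2 day 7 array 1 alone, at -1.33, while the first was above it on all 30 arrays. Of the 4 Ttn probes 1 stood at 0.75 on that array and was below background on the other 29. For Cacna1s the second probe was above background on 7 arrays, and its levels of -4.00, -3.99 and -4.07 in WT CaCl2 lay above -6.97, -6.90 and -6.21 in WT sham at day 7, as the first probe's did. For a member with 1 probe no such check was possible. Group membership took up a median of 63.8% of a tested member's variance over the 30 arrays, beside 52.8% over all genes, and 79.7% beside 69.7% without both arrays.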

How the data were processed

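Spots were read as fluorescence intensity of 1 dye on Agilent arrays with Feature Extraction 10.7.1.1, per the file headers, which subtracted background and removed spatial trends, while the submitters' processing notes name version 9.5.1.1. The deposited matrix of the authors holds intensity values on a linear scale whose 30 columns share 1 distribution, with a median of 24.2 in each and a correlation of 0.979 or more with the own array, and was used as an alternative. No array had saturated spots, and 24 of 55681 probes were left out for flagged spots. Here log2 of the processed signal minus that of the 75th percentile of the array was fitted with limma 3.58.1 (R 4.3.3), with 1 mean for each of 10 groups over 30 arrays and 20 residual degrees of freedom, and p-values were adjusted by Benjamini-Hochberg over all 23268 gene names, with a threshold of 0.05 and the standard error of the fit beside each change. A probe was kept if well above background on all 3 arrays of a group (33228 probes), and a gene was read from its brightest kept probe. Bounds set the mean of the brighter group against the weakest signal above background, and are given only where all 3 arrays of the brighter group were above it. The number of arrays limits the precision.

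The members and the gene lists were chosen with earlier results of these data known. Results for some genes outside the members are not reported here. Values by array were given for the 2 members of each of 6 roles with the highest mean level and for members called in a CaCl2 comparison. Other genes were named for being among the 3 with the highest mean level of a list, for likeness to the members, or, where a count was 5 or fewer or the text says so, after their values were seen. Members were found by the gene name in the files, other probes were renamed through RefSeq accession (27170), symbol (3580) or synonym (565), and 24291 kept the name of the file. Probe coordinates are mm9 as in the files, promoters those of RefSeq GRCm38.p6.

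Arrays of a group correlated at 0.808 to 0.989 over all probes, and no arrays were identical. Array numbers recur in all groups, and the labels used here do not say whether they pair samples. Of 12 pairs of same-numbered CaCl2 and sham arrays 2 deviated together with a correlation over 0.1 (range -0.378 to 0.211). With 3 arrays in a group this cannot show whether samples were paired, and the main fit used no pairing. Alternatives were other normalizations, filters, probe rules, slide and replicate blocks, fits of the compared groups alone, 6 dim arrays left out, and each array left out. Leaving out both arrays that stood apart, and a slide block without WT sham day 42 array 2, were added after seeing the data. In simulated data for WT CaCl2 against sham at day 7, over 23268 genes, 12, 38, 43 and 49 of 50 genes changed by 1, 2, 3 and 4 (log2) were recovered, with 7 false calls. Noise there was drawn independently for each gene and array, with no slide effect, no array that stood apart and no background limit. The simulation therefore gives no rate of false calls for the real arrays.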

Additional observations from a re-analysis of the deposited data

How the results depend on the processing

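The 27 called changes of single members turned direction under none of their 1178 alternatives. Many of these could not turn it: with 1 mean per group, leaving out an array outside the compared groups keeps the size of a change. Call and direction were kept in 1011 and the call was lost in 167. The order below is WT day 7, WT day 42, uMT day 7 and uMT day 42 for CaCl2 against sham, then sham day 7 and day 42 against pre, uMT against WT and the genotype difference at day 7, with 7, 9, 1, 4, 2, 2, 2 and 0 members called. Numbers that moved by over 1.5 times follow, and their cause was not tested.

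With slide as a random block they were 3, 5, 0, 0 in the CaCl2 comparisons, 1 in sham day 42 and 0 in uMT against WT, with 0 at an unadjusted p under 0.05 in all 3 counts of 0. Of all 23268 genes 53, 1066, 0, 0, 112 and 2 were called there. As a fixed block the members called were 3 and 5 in WT and 1 in each sham comparison, beside 77, 957, 2688 and 100 of all genes. The random block without WT sham day 42 array 2 gave 11 in WT day 7, 5 and 11 in uMT, 1 in sham day 42, 9 in uMT against WT and 2 in the genotype difference. Of all genes that fit called 6034, 4086, 4879, 1095, 10633 and 47. Without both arrays that stood apart the members called were 13, 11 (uMT day 42), 6 (sham day 7), 7 (uMT against WT) and 4 (genotype difference). Beside these stood 5062, 4335, 4183, 6860 and 681 of all genes. Without the dim arrays the members called were 3 in uMT day 7 and 1 in sham day 7, beside 3959 and 2894 of all genes. Leaving these out kept only array 3 of uMT CaCl2 day 42 and only array 1 of uMT sham day 42. Counts are therefore not given there for uMT day 42, sham day 42 and uMT against WT, which use a group with 1 array. The compared groups alone gave 14 and 0 in WT (10 at unadjusted p for the 0), 0 in uMT day 7 (3 at unadjusted p), and 8 and 0 in the sham comparisons (4 at unadjusted p), and this fit was not run for uMT against WT. Of all genes 7849, 0, 0, 4667 and 13 were called in these fits. Quantile normalization and the authors' deposited matrix each gave 0 in uMT day 7 and in sham day 7 (7 and 5 at unadjusted p), and normexp gave 0 in sham day 7 (4 at unadjusted p) and 1 in uMT against WT. The percentile over probes above background on all arrays gave 1 in both sham comparisons and in uMT against WT, and moved the median of all genes by up to 0.18 (sham day 42). Without a filter the numbers were 0 in sham day 7 (6 at unadjusted p), 1 in sham day 42 and 1 in uMT against WT. All-gene counts ran from 53 to 7849, 0 to 4019, 0 to 4086 and 0 to 4879 in the CaCl2 comparisons, beside 1534, 2417, 208 and 1473. In the rest, in the order above, they ran from 1059 to 4667, 13 to 2927, 2 to 10633 and 0 to 681, beside 1457, 2486, 692 and 0.

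A replicate block, which pairs arrays by number, gave 1 in sham day 7 and 1 in uMT against WT and left the other counts at 7, 9, 1, 4 and 2. Leaving out 1 array gave ranges of 3 to 12, 7 to 10, 0 to 3, 2 to 8, 0 to 5, 1 to 5, 1 to 5 and 0 to 0, and 0 to 0 for the genotype difference at day 42. In sham day 7 against pre uMT CaCl2 day 7 array 1 gave 5 when left out, 13 other arrays gave 1, and WT sham arrays 1 and 2, uMT sham arrays 1 and 2 and uMT pre array 2 gave 0. In sham day 42 against pre WT sham arrays 1 and 3 gave 4 and 5, the 3 WT pre arrays, WT sham day 42 array 2, uMT pre arrays 1 and 3 and uMT sham arrays 2 and 3 gave 1. For uMT against WT WT sham day 42 array 2 gave 5, uMT CaCl2 day 7 array 1 gave 4, and 23 of the other arrays gave 1. Signal over background limits the members near it: 17 of the 35 were above background on fewer than 20 arrays.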

Other observations

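Single members were followed by different genes over the arrays, which were looked for after the values were seen and are given as a description. The genes nearest to Acta1 over 30 arrays, with Pearson r, were Mustn1 (0.973), Agtr1b (0.97), Efhd1 (0.968), and over the 28 arrays without the 2 that stood apart Mustn1 (0.975), Kcnmb1 (0.973), Nat14 (0.969), Des (0.969). Mustn1 is expressed in muscle and skeletal tissue and Des codes for desmin, an intermediate filament of all muscle types. Those nearest to Tnni2 were Abcc3 (0.927), AI662270 (0.911), Clec4e (0.911) over 30 arrays, and Rinl (0.971), Pik3cd (0.968), Cd52 (0.961) over 28. Pik3cd and Cd52 are expressed in blood cells. Myh8 had no gene above 0.722 over 30 arrays.

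The array with sarcomere signal, uMT CaCl2 day 7 array 1, was the highest of all 30 for 7.38% of all genes tested, and the dim WT sham day 42 array 2 for 28.7%. Of the 24 tested members the dim array was highest for 4, and its Mylk4 level of 4.47 and Pygm level of 3.19 were the highest of all arrays, while its Acta1 level of 2.06 was under all other sham arrays. In the pre groups Tnni2 stood at -1.38, -1.28 and -1.90 in uMT and -2.13, -1.87 and -2.39 in WT, which were the lowest group means of the 5 conditions in each genotype.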
